A study of Mus musculus with 2 samples.

Results

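Levels of 10 genes that set how immune cells of a tumor are restrained or licensed by surface contact were followed in immune cells sorted with CD45 beads from 143B tumors. The genes are Cd274 (ENSMUSG00000016496, PD-L1), Pdcd1lg2 (ENSMUSG00000016498, PD-L2), Vsir (ENSMUSG00000020101, VISTA), Lgals9 (ENSMUSG00000001123, galectin-9), Havcr2 (ENSMUSG00000020399, TIM-3), Cd47 (ENSMUSG00000055447), Sirpa (ENSMUSG00000037902, SIRPα), Cd80 (ENSMUSG00000075122), Cd86 (ENSMUSG00000022901) and Cd40 (ENSMUSG00000017652). They were chosen by name from the 32285 genes of the deposited lists, and all 10 of them had UMIs in the cells kept. 143B is a human osteosarcoma cell line, which was grown under the skin of female nude mice aged 4 weeks, and nude mice lack a thymus and therefore most T cells while their myeloid cells remain. Mice received 10 mg/kg of control IgG, a human IgG1, or 10 mg/kg of anti-CD3L1 every 3 days for 4 doses. Anti-CD3L1 is an antibody against CD3L1, the product of the human gene ITPRIPL1. Each group gave 1 library of 10x Genomics droplets made from 3 pooled tumors of 1 cell line, so no difference between the groups has a replicate check, and every interval below is a 95% interval that covers counting error only.

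PD-L1 and PD-L2 bind PD-1 on T cells and lower their activation, and VISTA and the galectin-9 and TIM-3 pair act as further brakes. CD47 on a target cell binds SIRPα on a phagocyte and restrains its uptake. CD80 and CD86 on antigen-presenting cells bind CD28, which costimulates T cells, or CTLA-4, which restrains them, and CD40 receives the CD40 ligand signal that licenses dendritic cells and macrophages. Among the immune cells of tumors, neutrophils, monocytes, macrophages and dendritic cells can carry many of these molecules. Mature dendritic cells are known for carrying restraining and costimulatory ones at once.

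Barcodes with at least 500 UMIs (unique molecular identifiers, 1 per captured RNA molecule), over 200 and under 6000 genes and under 5% mitochondrial UMIs were kept as cells, 8557 after control IgG and 11269 after anti-CD3L1. The medians were 5526 UMIs and 1359 genes per cell against 8267 UMIs and 2641 genes, and 26 barcodes occurred among the cells of both libraries. Cells were placed by scores of fixed marker genes into 10 immune classes, and cells that met no score were left ungated. Neutrophil-like cells were 5786 (67.6%) and 554 (4.92%) of the cells, monocyte-like cells 1151 (13.5%) and 1478 (13.1%), and macrophage-like cells 548 (6.40%) and 3808 (33.8%), control IgG first and anti-CD3L1 second as in every pair of values below. The 7 smaller classes were NK-like, innate lymphoid-like, B cell-like and 4 kinds of dendritic cell-like cells, and each of the dendritic and B cell-like classes rested on 7 to 16 cells in the control IgG library. Only 4 and 9 cells were T cell-like. Of cells outside the immune lineage, 0 and 30 were fibroblast-like and 0 and 8 endothelial-like.

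Ungated cells were 853 (9.97%) and 3777 (33.5%). They included the monocyte-scored cells of cluster 1, 0.876% and 11.0% of the libraries, and the neutrophil-scored cells of cluster 13, 1.37% and 0.470%. The 10 leading genes of those clusters held more markers of another class, so these cells stayed ungated. In cluster 1 that was a count of 1 (Areg, an innate lymphoid marker) against 0. Levels given by cluster number sum all cells of a cluster, whatever their class. Those were 130 and 2550 cells in cluster 1 and 187 and 120 in cluster 13. Within the named classes the clusters also differed between the libraries. Cluster 3 held 83.2% and 21.9% of monocyte-like cells, and cluster 8 held 5.65% and 46.3%. Among macrophage-like cells cluster 6, led by C1q genes and Gas6, held 45.3% and 23.7%, and cluster 2, led by Gpnmb and Trem2, held 10.6% and 53.7%. Cluster 3, named monocyte-like, held 29.7% of the macrophage-like cells after control IgG, and unnamed cluster 1 held 12.97% of those after anti-CD3L1. Of neutrophil-like cells, cluster 0 held 46.8% and 42.1% and cluster 10 7.28% and 38.6%, while cluster 5 held 21.2% of the control IgG cells.

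Levels are UMIs of a gene per 1000000 UMIs of the class (CPM), and a gene was called higher or lower where its CPM differed by more than 1.5-fold between the libraries with the counting interval of the ratio on the same side of 1. Over all cells Cd86 and Cd40 were higher after anti-CD3L1 and Cd274 was lower, which is 2 of 10 genes higher and 1 lower, beside 53.8% of all 17781 genes higher and 9.28% lower. The median gene, among genes with at least 20 UMIs in each library, was itself higher by 0.66 on the log2 scale over all cells, by 0.51 in neutrophil-like cells and by 0.25 in monocyte-like cells, against -0.02 in macrophage-like cells. Taken relative to that median, only Cd40 stayed past the fold over all cells and Cd274, Vsir, Cd47 and Cd80 were lower, beside 18.8% of genes higher and 20.6% lower.

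In neutrophil-like cells 7 of the 10 genes were higher (Cd40, Havcr2, Lgals9, Pdcd1lg2, Sirpa, Cd86 and Vsir) and 0 lower, beside 33.1% of 11176 genes higher and 3.46% lower. Relative to the median gene 2 were higher, Cd40 and Havcr2, and 1 lower, Cd47, beside 15.4% and 10.5%. The shares of neutrophil-like cells with a UMI of Cd40 or Havcr2 overlapped those of NK-like cells, as given further on. The Cd40 level lay above that of NK-like cells after anti-CD3L1, and NK-like cells can carry some TIM-3. Expression of these 2 genes by neutrophils was not tested. In monocyte-like cells Cd86 and Sirpa were higher and Cd274 and Havcr2 lower, so 2 of 10 in each direction, beside 25.1% of 12621 genes higher and 6.0% lower, and relative to the median gene Cd86 alone was higher and the same 2 were lower, beside 14.8% and 10.7%. In macrophage-like cells Pdcd1lg2 alone was higher and 0 were lower, beside 9.14% of 14256 genes higher and 8.17% lower, and the scaling left these counts as they were, beside 9.46% and 7.86%. The share of the 10 genes called was thus near that of all genes in macrophage-like cells. The monocyte-like class left out 75 and 1244 monocyte-scored cells of cluster 1. With them put back, 9 of the 10 monocyte-like ratios moved outside the counting intervals of the main values.

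**Figure D1:**
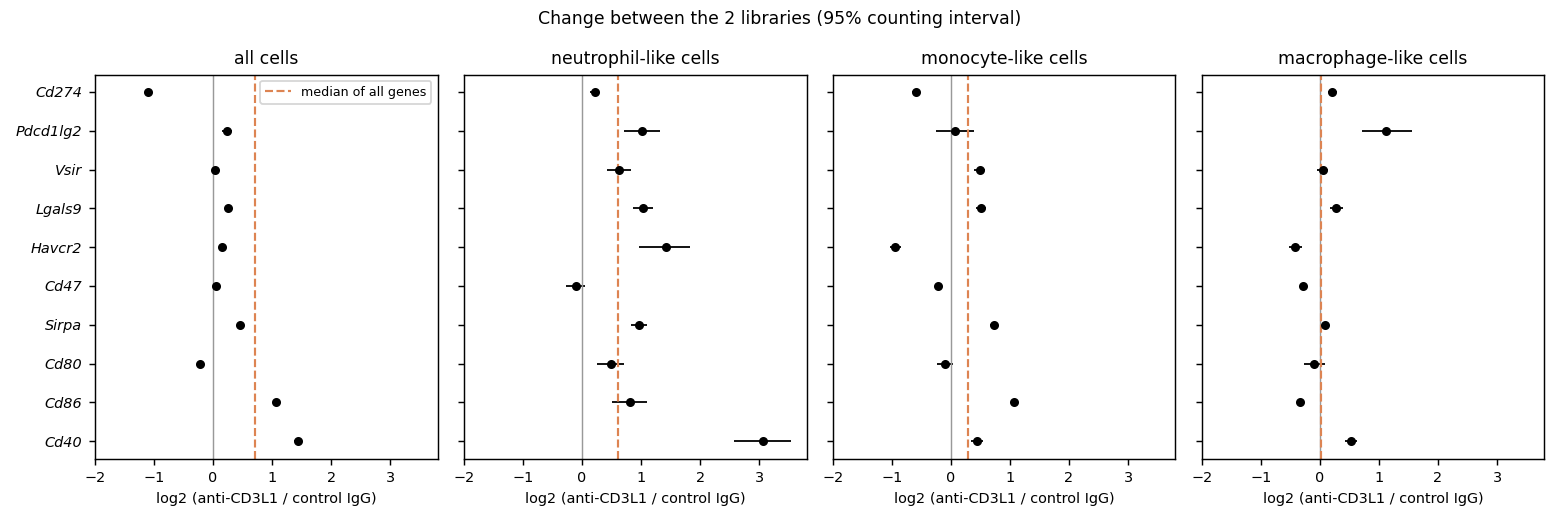
Log2 ratio of CPM, anti-CD3L1 over control IgG, of each of the 10 genes over all cells and in neutrophil-, monocyte- and macrophage-like cells, with 95% counting intervals. The dashed line is the median of all genes with at least 20 UMIs over both libraries together. The calls relative to the median gene used another median, of genes with at least 20 UMIs in each library. Cd40 lies at 3.07 in neutrophil-like cells. There its share of cells with a UMI overlapped that of NK-like cells. Its CPM after anti-CD3L1, 35.7 (26.5 to 47.1), lay above that of NK-like cells, 7.85 (5.88 to 10.3). Cd86 lies at 1.07 in monocyte-like cells but at -0.33 in macrophage-like cells.

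How far the changes over all cells came with the shares of the classes was computed from shares of UMIs, not of cells. The control IgG levels of each class were given the UMI shares of the classes in the anti-CD3L1 library. Classes without cells after control IgG, 0.718% of the anti-CD3L1 UMIs, were left out of the weighting and so count within classes. For Cd274 the class shares alone gave a log2 ratio of -0.99 of the -1.10 seen over all cells and left -0.11 within classes. Neutrophil-like cells held 70.4% and 5.31% of all Cd274 UMIs. For Cd86 the shares gave 0.86 and the levels within classes 0.21, and for Cd40 0.83 and 0.60. The part within classes exceeded 0.3 in size for Pdcd1lg2 (0.41), Lgals9 (0.41) and Havcr2 (-0.36) as well. Without neutrophil-like cells the log2 ratio was -0.33 for Cd274, 0.34 for Cd86 and 0.57 for Cd40, all short of the fold, whereas Pdcd1lg2 (0.73) and Havcr2 (-0.65) then passed it. The classes, and the ungated cells taken as 1 class, are broad, so shifts between clusters inside a class count here as change within it.

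**Figure D2:**
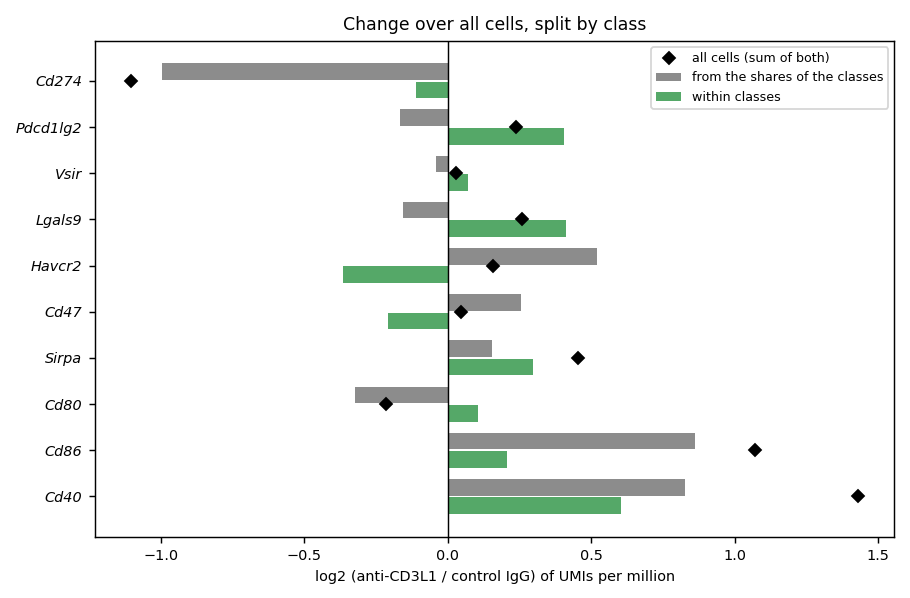
Log2 ratio of each gene over all cells (diamonds) split into the part given by the class shares of UMIs (grey bars) and the part within classes (green bars), which sum to it. The grey bar takes up nearly all of the change of Cd274, while Cd40 has bars of 0.83 and 0.60.

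**Figure D3:**
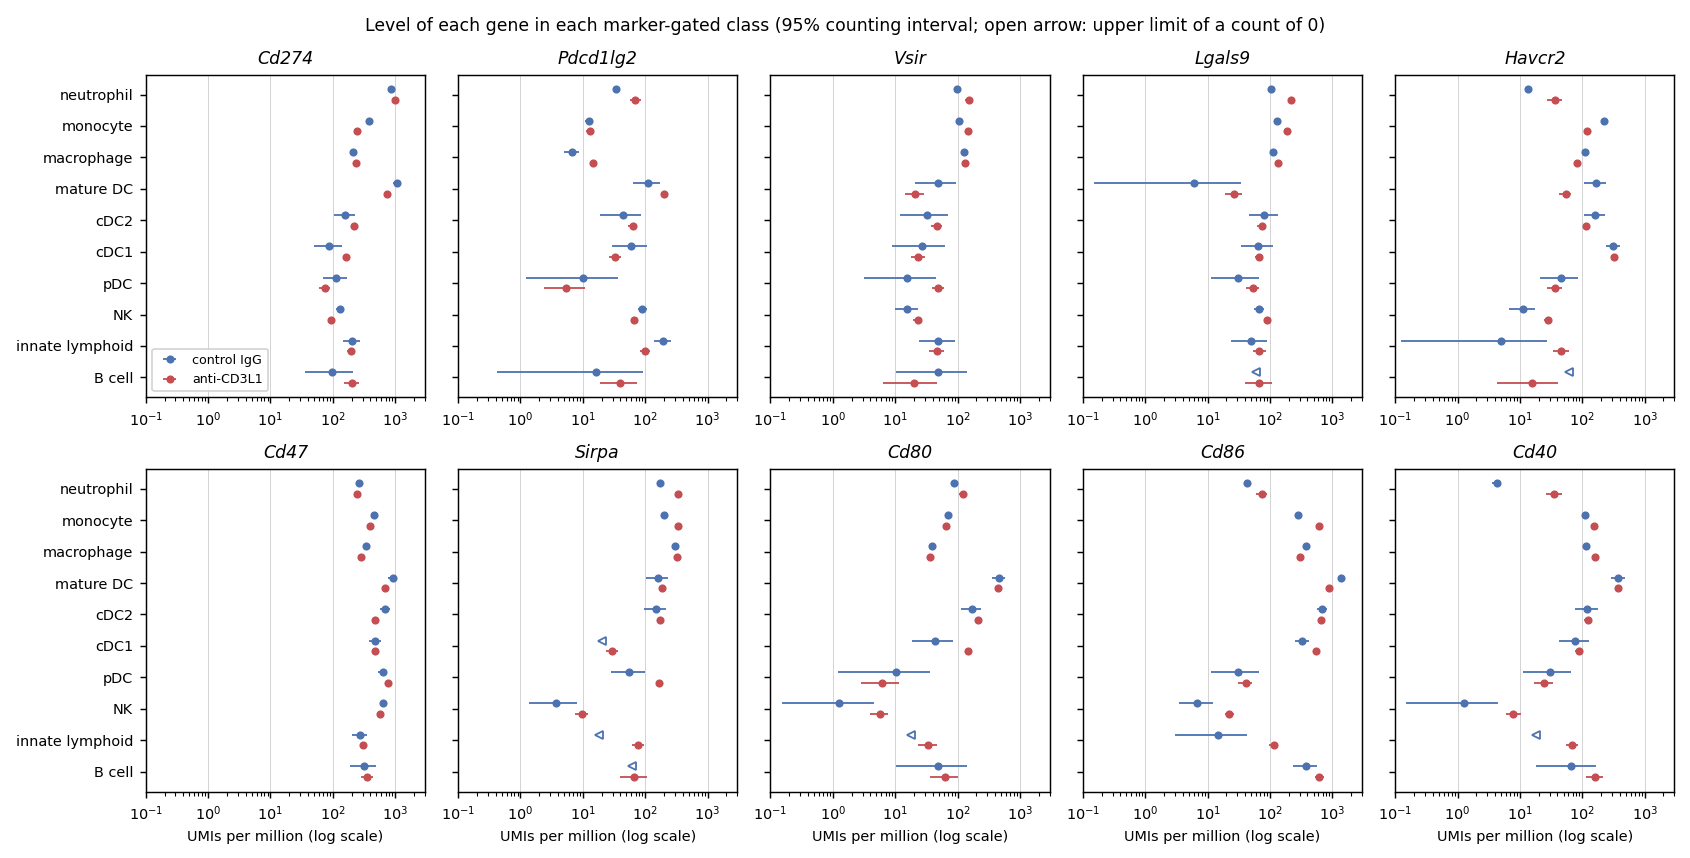
Level of each gene in CPM (log axis) in the 10 marker-gated classes of the control IgG (blue) and anti-CD3L1 (red) libraries, with exact Poisson 95% intervals and an open arrow at the upper limit where no UMI was seen. Cd274 sits highest in neutrophil-like and mature dendritic cell-like cells, and Cd80, Cd86 and Cd40 in mature dendritic cell-like cells.

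Cd274, the ligand of PD-1 that antibodies in clinical use block, was highest in mature dendritic cell-like and neutrophil-like cells. Neutrophil-like cells had 867.5 CPM (857 to 878) after control IgG and 1009 CPM (957 to 1063) after anti-CD3L1. Mature dendritic cell-like cells had 1088 CPM (934 to 1259.6) after control IgG and 729.7 CPM (688 to 773) after anti-CD3L1. The control IgG level of mature dendritic cell-like cells rested on 13 cells, and these intervals do not cover variation between cells. By counting error alone the intervals of these classes lay apart in each library. Mature dendritic cells came first after control IgG and neutrophil-like cells after anti-CD3L1, an order that was not tested between cells. Monocyte-like cells came next with 374 CPM (365 to 384) after control IgG and 248 CPM (239 to 257) after anti-CD3L1, and the other 7 classes ranged over 87.1 to 207 CPM and 74.0 to 239 CPM. The log2 ratio was 0.22 (0.14 to 0.30) for neutrophil-like, -0.60 (-0.66 to -0.53) for monocyte-like and 0.21 (0.13 to 0.28) for macrophage-like cells. With the monocyte-scored cells of cluster 1 put back, the monocyte-like ratio was -0.22 (-0.27 to -0.17), short of the fold. In macrophage-like cluster 6 alone the ratio was 0.46. The slightly higher level in neutrophil-like cells turned to -0.29 relative to the median gene.

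Within the neutrophil-like clusters, which were made without these genes, Cd274 covered a wide range. It had 1575 (1548 to 1603) and 2419 CPM (2076 to 2803) in cluster 5, led by F3, Nos2 and Ccl3, and 1401 (1342 to 1461) and 1266 CPM (1165 to 1374) in cluster 10. In cluster 0 it had 614 (601 to 627) and 1091 CPM (1006 to 1182), and in cluster 4, led by Ngp, Ly6g and Retnlg, 547 (531 to 563) and 321 CPM (256 to 397). The control IgG and anti-CD3L1 values thus lay in opposite order in clusters 0 and 5 against cluster 4, with 29 and 66 anti-CD3L1 cells in clusters 5 and 4. The monocyte-like clusters differed less than the class: cluster 3 had 355 (346 to 364) and 399.6 CPM (377 to 423) and cluster 8 103 (83.7 to 126) and 126 CPM (117 to 134), so neither was lower after anti-CD3L1, while cluster 12 had 604 (559.8 to 649.9) and 536 CPM (509.9 to 563), lower with overlapping intervals. Cluster 1 had 407 (375 to 441) and 399.5 CPM (391 to 408) and cluster 13 587 (562 to 614) and 574 CPM (533 to 618), and the intervals overlapped in both.

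Pdcd1lg2, the second PD-1 ligand, was sparse, with 1719 and 2953 UMIs over all cells against 39308 and 26629 of Cd274. After anti-CD3L1 mature dendritic cell-like cells were first with 199 CPM (178 to 223), apart from innate lymphoid-like cells with 99.7 CPM (81.9 to 120.1). After control IgG the order was 193 CPM (137 to 263) in innate lymphoid-like, 109 CPM (64.8 to 173) in mature dendritic cell-like and 90.0 CPM (75.9 to 106) in NK-like cells, with neighbouring intervals overlapping. NK-like cells thus carried Pdcd1lg2 at 90.0 and 65.8 CPM, while monocyte-like cells had 12.4 and 12.99 CPM and macrophage-like cells 6.604 and 14.4 CPM. In neutrophil-like cells it had 34.1 CPM (32.1 to 36.2) after control IgG and 69.3 CPM (56.2 to 84.5) after anti-CD3L1, a log2 ratio of 1.02 (0.71 to 1.32). The macrophage-like ratio was 1.12 (0.71 to 1.57), and within cluster 6 alone it was 0.55, short of the fold.

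Vsir, which encodes VISTA, was a gene of the myeloid classes. Neutrophil-like cells had 97.6 CPM (94.2 to 101) after control IgG and 151 CPM (132 to 173) after anti-CD3L1, monocyte-like cells 106 and 149 CPM and macrophage-like cells 129 and 133 CPM. The 7 dendritic and lymphoid classes held 15.2 to 49.4 CPM after control IgG and 19.8 to 48.9 CPM after anti-CD3L1, each value below those of the 3 myeloid classes, although with wide intervals on few cells after control IgG. The log2 ratio was 0.63 (0.43 to 0.84) in neutrophil-like cells, falling to 0.13 relative to the median gene, and 0.48 (0.39 to 0.58) in monocyte-like cells. The macrophage-like ratio was 0.045 (-0.053 to 0.14).

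Lgals9, whose product galectin-9 binds TIM-3 among other partners, had 106 CPM (102 to 109) after control IgG and 217 CPM (193 to 243) after anti-CD3L1 in neutrophil-like cells, a log2 ratio of 1.04 (0.86 to 1.21). Monocyte-like cells had 132 and 187 CPM, macrophage-like cells 111 and 135 CPM and mature dendritic cell-like cells 6.08 and 26.7 CPM, so that mature dendritic cells, first for PD-L2 after anti-CD3L1, were last or among the last for galectin-9. In all 4 of the larger neutrophil-like clusters the anti-CD3L1 value was the higher one, from 94.4 (87.8 to 101) and 126 CPM (86.8 to 177) in cluster 4, where the intervals overlapped, to 124 (116 to 132) and 465 CPM (322 to 649) in cluster 5.

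Havcr2, which encodes TIM-3, a receptor that restrains dendritic cells as well as T cells, was highest in type 1 conventional dendritic cell-like cells, the subset that cross-presents tumor antigen, with 316 CPM (239.8 to 408) after control IgG and 317 CPM (297 to 339) after anti-CD3L1. Its level there was the same in both libraries within the intervals. Monocyte-like cells had 226 CPM (218 to 234) after control IgG and 117 CPM (112 to 124) after anti-CD3L1, a log2 ratio of -0.94 (-1.03 to -0.85). Within clusters 3 and 8 this difference was small: cluster 3 had 224 (217 to 231) and 218 CPM (201 to 235) and cluster 8 58.5 (44.1 to 76.2) and 64.5 CPM (58.6 to 70.9), so the lower class value stood beside the smaller share of cluster 3 in the anti-CD3L1 library. Cluster 12 was lower after anti-CD3L1, with 179 (156 to 205) and 120.3 CPM (108 to 133). Macrophage-like cells had 111 and 82.9 CPM, a log2 ratio of -0.42 (-0.53 to -0.31) that was -0.017 in cluster 6 alone, and mature dendritic cell-like cells 164 CPM (108 to 239) after control IgG and 54.0 CPM (43.1 to 66.7) after anti-CD3L1. Neutrophil-like cells were low, at 13.7 and 36.4 CPM, and their log2 ratio of 1.42 (0.97 to 1.84) rested on 51 UMIs in the anti-CD3L1 library.

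Cd47, the ligand that restrains phagocytosis, was measured in every class. After anti-CD3L1 it was highest in plasmacytoid dendritic cell-like cells with 755 CPM (712 to 801) and in mature dendritic cell-like cells with 679.5 CPM (639 to 722), whose intervals overlapped, followed by NK-like cells with 577 CPM (559 to 596). Neutrophil-like cells had the lowest level in both libraries, 265 CPM (259 to 270.4) and 246 CPM (220.4 to 273), although after control IgG the interval overlapped that of the innate lymphoid-like cells above it. The log2 ratio was -0.11 (-0.27 to 0.048) in neutrophil-like, -0.21 (-0.27 to -0.16) in monocyte-like and -0.28 (-0.34 to -0.22) in macrophage-like cells, all short of the fold.

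Sirpa, the phagocyte receptor for CD47, had another distribution, with the myeloid classes first. Macrophage-like cells had 301 CPM (289 to 314) after control IgG and 322 CPM (316 to 328) after anti-CD3L1, monocyte-like cells 202 CPM (195 to 209) after control IgG and 334 CPM (324 to 345) after anti-CD3L1 and neutrophil-like cells 172 CPM (167 to 176) after control IgG and 336 CPM (307 to 368) after anti-CD3L1. The log2 ratios were 0.095 (0.031 to 0.16), 0.73 (0.66 to 0.80) and 0.97 (0.83 to 1.11), so that the 3 classes, apart from one another after control IgG, had overlapping intervals after anti-CD3L1. All 3 monocyte-like clusters showed the higher level, with 223 (216 to 229.7) and 318 CPM (299 to 339) in cluster 3 and 320.4 (285 to 359) and 429.5 CPM (414 to 445) in cluster 8 and 167 (145 to 193) and 246 CPM (228 to 264) in cluster 12, as did neutrophil-like cluster 0 with 193 (185 to 200.2) and 411 CPM (359 to 468). NK-like cells had 3.75 and 9.63 CPM. Type 1 conventional dendritic cell-like cells, which are known for lacking SIRPα, had 0 UMIs after control IgG. On those 10 cells this allows up to 20.1 CPM. After anti-CD3L1 they had 29.5 CPM (23.5 to 36.6), against 172 CPM (156 to 190.0) in the type 2 subset.

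Cd80 and Cd86, the ligands of CD28 and CTLA-4, shared their first 2 classes but differed among the myeloid ones. Mature dendritic cell-like cells led for Cd80 with 456 CPM (359 to 571) after control IgG and 439 CPM (407 to 473) after anti-CD3L1, and type 2 conventional dendritic cell-like cells followed with 169 and 211 CPM. For Cd86 the same classes led, with 1392 CPM (1217 to 1584) after control IgG and 871 CPM (826 to 919) after anti-CD3L1 in mature and 687 and 671 CPM in type 2 dendritic cell-like cells. Neutrophil-like cells held 86.4 and 121 CPM of Cd80, above monocyte-like (69.7 and 65.3 CPM) and macrophage-like cells (38.6 and 36.2 CPM), whereas for Cd86 they held 42.2 and 74.3 CPM, below monocyte-like (286 and 601 CPM) and macrophage-like cells (379 and 301 CPM). B cell-like cells, on 7 and 55 cells, had 376 CPM (239 to 565) and 622 CPM (528 to 727) of Cd86. NK-like cells, which should lack both genes, had 1.25 and 5.63 CPM and 6.87 and 22.4 CPM.

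The change of Cd86 differed in direction between the classes. Mature dendritic cell-like cells were lower, -0.68 (-0.88 to -0.47), on 13 cells after control IgG. Type 1 conventional dendritic and B cell-like cells were higher, 0.71 (0.34 to 1.10) and 0.72 (0.087 to 1.42), on 10 and 7 such cells. NK-like and innate lymphoid-like cells were higher on 11 and 3 control IgG UMIs. Type 2 and plasmacytoid dendritic cell-like cells were called neither. In monocyte-like cells the log2 ratio was 1.07 (1.02 to 1.13), and the anti-CD3L1 level was the higher one in cluster 3 with 250.1 (243 to 258) and 401 CPM (379 to 425) and in cluster 8 with 485 (442 to 532) and 797 CPM (776 to 819), but not in cluster 12, with 462 (424 to 503) and 472 CPM (448 to 497). Macrophage-like cells had the opposite sign, -0.33 (-0.39 to -0.28), and the clusters spanned 249 (217 to 284) and 211 CPM (205 to 217) in cluster 2 and 521 (499 to 544) and 486 CPM (473 to 500.3) in cluster 6, each level or lower after anti-CD3L1. With classes taken from the clusters the macrophage-like ratio was -0.70, past the fold, and in cluster 6 alone it was -0.12. The macrophage-like cells compared came from the clusters in different shares. Cluster 2, with less Cd86 than cluster 6, gave 10.6% and 53.7% of them and cluster 6 45.3% and 23.7%. Cluster 3 gave 29.7% of those after control IgG. Cluster 1 had 429.7 (397 to 465) and 371 CPM (363 to 379). In neutrophil-like cells Cd86 had 42.2 CPM (40.0 to 44.5) after control IgG and 74.3 CPM (60.7 to 90.0) after anti-CD3L1, a log2 ratio of 0.81 (0.51 to 1.10) and of 0.31 relative to the median gene, but of 1.75 (1.57 to 1.92) with the neutrophil-scored cells of cluster 13 put back. Cd80 had log2 ratios of 0.49 (0.26 to 0.71), -0.095 (-0.23 to 0.040) and -0.091 (-0.27 to 0.094) in neutrophil-, monocyte- and macrophage-like cells, none past the fold.

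Cd40, the receptor that licenses antigen-presenting cells, was likewise highest in mature dendritic cell-like cells, with 371 CPM (284 to 476) after control IgG and 371 CPM (341 to 402) after anti-CD3L1. Macrophage-like cells had 113 CPM (105 to 120.4) after control IgG and 162 CPM (158 to 166) after anti-CD3L1 and monocyte-like cells 112 CPM (107 to 117) after control IgG and 152 CPM (145 to 159) after anti-CD3L1, log2 ratios of 0.53 (0.42 to 0.63) and 0.44 (0.34 to 0.54) that stopped short of 1.5-fold. Neutrophil-like cells had 4.26 CPM (3.57 to 5.04) after control IgG and 35.7 CPM (26.5 to 47.1) after anti-CD3L1, which is the largest ratio among the 10 genes in that class, 3.07 (2.57 to 3.55), but rested on 136 and 50 UMIs. Beside it, the summed level of the 10 macrophage markers in neutrophil-like cells was 180.2 and 759 CPM, all 10 markers having UMIs in both libraries, and in empty droplets of 10 to 100 UMIs it was 4540.2 and 12920.4 CPM. Cd40 itself had 40.5 and 114 CPM in those droplets. The part of such RNA in the neutrophil-like changes of Cd40, Cd86 and Havcr2 was not tested directly; with the droplet profile subtracted the Cd40 ratio was 3.28. The neutrophil markers summed to 182120.4 and 100290.1 CPM in the same cells, whose median depths were 4468 and 2104 UMIs.

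**Figure D4:**
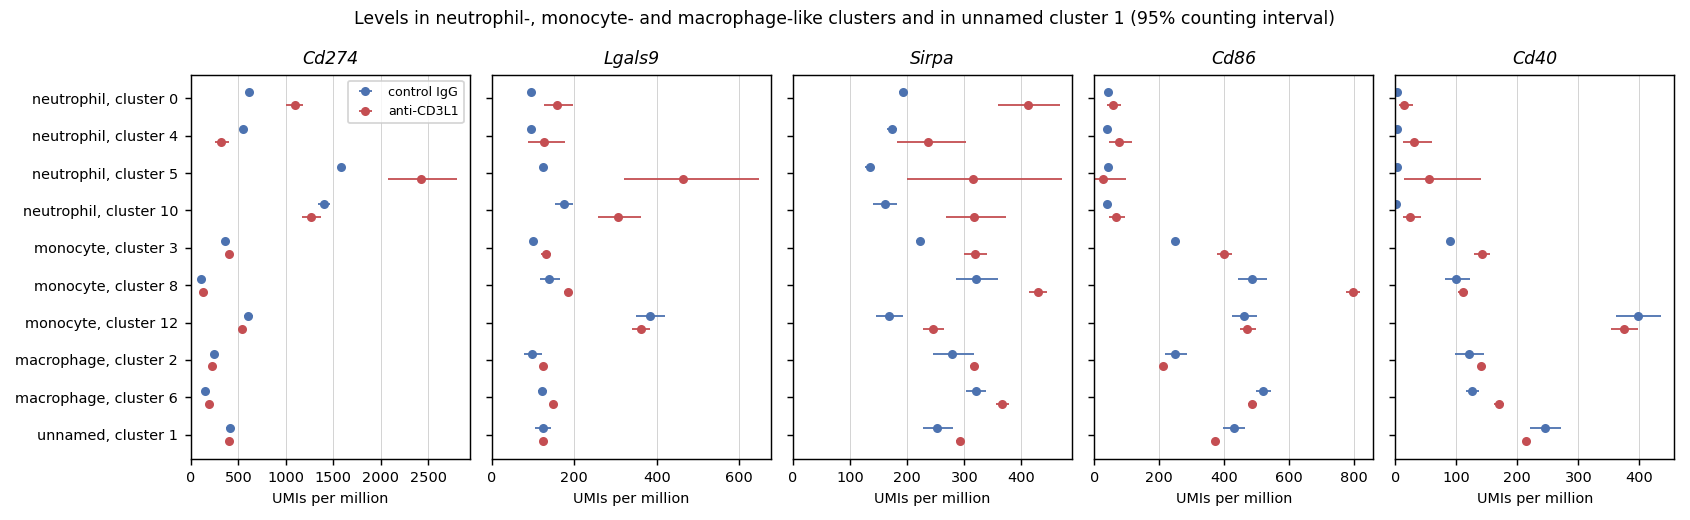
Levels of Cd274, Lgals9, Sirpa, Cd86 and Cd40 in CPM in 4 neutrophil-like, 3 monocyte-like and 2 macrophage-like clusters and in unnamed cluster 1, control IgG in blue and anti-CD3L1 in red, with 95% counting intervals. Each level sums all cells of the cluster, whatever their class. Cluster 12 stands above the other monocyte-like clusters for Lgals9 and Cd40 in both libraries, and cluster 5 above the other neutrophil-like clusters for Cd274.

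Cluster 12, named monocyte-like by its markers, had 105 and 360 cells, of which 71 and 158 were in the monocyte-like class. Its levels are those of all its cells. It was led by Ifit1bl1, Cmpk2, Ifit3b, Ifit3 and Rsad2, genes known to be induced by interferon. Lgals9, Cd40 and Cd274 were higher in it than in monocyte-like clusters 3 and 8 in each library. Lgals9 had 384 (349 to 421) and 361 CPM (339.9 to 383) in it against 99.3 and 130.4 CPM in cluster 3 and 139 and 184 CPM in cluster 8. Cd40 had 398 (362 to 435) and 375 CPM (353 to 397) against 90.0 and 142 CPM and 100.1 and 111 CPM. Cd274 had 604 (559.8 to 649.9) and 536 CPM (509.9 to 563) against 355 and 399.6 CPM and 103 and 126 CPM. The intervals of the 2 libraries overlapped in this cluster for each of these genes, and Havcr2, Sirpa and Vsir were not highest in it.

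RefSeq promoters, 250 bases before to 50 after the gene start in build GRCm38.p6, were at hand for 7 of the 10 genes, and those of Lgals9 and Cd274 are shown because both genes were high in the interferon-gene cluster. Both strands were searched for 3 motifs, the core of the interferon-stimulated response element (GAAA, any 2 bases, GAAA), the gamma-activated site (TTC, any 3 bases, GAA) and the NF-kappaB consensus. They were found in 3.44%, 8.3% and 8.46% of 32851 promoters. The Lgals9 promoter held 2 response-element cores, at bases 196 to 205 and 266 to 275 where the gene starts after base 250, both read on the opposite strand and given in capitals. The Cd274 promoter held none of the 3 motifs in this window, and Pdcd1lg2 had an NF-kappaB match at bases 7 to 16 on both strands. The remaining promoters, of Vsir, Havcr2, Cd47 and Cd80, held none, and those of Sirpa, Cd86 and Cd40 were not searched. A match of letters describes the window only. Each sequence runs 5′ to 3′ on the strand of its gene.
Lgals9, chr11:78984875-78985174, minus strand: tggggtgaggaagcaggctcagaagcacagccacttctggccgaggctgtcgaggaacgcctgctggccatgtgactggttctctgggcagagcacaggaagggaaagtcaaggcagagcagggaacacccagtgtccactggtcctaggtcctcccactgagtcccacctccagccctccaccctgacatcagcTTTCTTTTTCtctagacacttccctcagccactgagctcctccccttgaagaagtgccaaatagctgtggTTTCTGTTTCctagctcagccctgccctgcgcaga
Cd274, chr19:29367188-29367487, plus strand: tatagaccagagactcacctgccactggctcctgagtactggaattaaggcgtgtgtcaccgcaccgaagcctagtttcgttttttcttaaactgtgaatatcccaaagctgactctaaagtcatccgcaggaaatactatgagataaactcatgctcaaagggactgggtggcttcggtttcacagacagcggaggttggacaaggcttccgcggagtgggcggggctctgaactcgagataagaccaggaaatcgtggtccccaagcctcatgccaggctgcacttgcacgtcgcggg

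Since deeper cells show more UMIs of any gene, shares of cells with a UMI were compared after every cell was thinned at random to 1000 UMIs, which left out 187 and 310 shallower cells. In neutrophil-like cells 44.5% (43.2 to 45.8) and 49.9% (45.5 to 54.3) of cells had a Cd274 UMI, a difference of 5.37 percentage points (0.763 to 9.97). Without thinning the shares were 74.6% and 65.2%, in the opposite order, beside the deeper control IgG cells. Thinning evens out depth only, and the median gene was higher by 0.51 on the log2 scale in these cells. Relative to it the Cd274 level had the opposite sign, as given above. In monocyte-like cells the Cd274 share was 28.8% (26.2 to 31.5) and 17.4% (15.5 to 19.5), the Havcr2 share 19.1% (16.9 to 21.5) and 10.4% (8.87 to 12.1) and the Cd86 share 22.6% (20.2 to 25.1) and 39.9% (37.4 to 42.4), so Cd274 and Havcr2 were detected in fewer and Cd86 in more cells after anti-CD3L1. Cluster 3 held 83.2% and 21.9% of these cells and cluster 8 5.65% and 46.3%. Shares within the clusters were not compared.

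In macrophage-like cells the Cd86 share was 26.2% (22.5 to 30.1) and 22.3% (21.0 to 23.7), a difference of -3.83 percentage points (-7.96 to 0.0643) whose interval held 0, and the Cd40 share was 10.7% (8.21 to 13.6) and 14.96% (13.8 to 16.1), a difference of 4.28 percentage points (1.16 to 7.01). NK-like cells, at median depths of 10908 and 8598 UMIs, served as the background for genes they should lack. Their Cd86 share was 0.752% (0.0190 to 4.12) and 1.27% (0.585 to 2.41) and their Cd40 share 0% (0 to 2.74) and 0.850% (0.313 to 1.84). The Cd40 share of neutrophil-like cells, 0.248% (0.136 to 0.416) and 1.36% (0.550 to 2.79), overlapped that background in both libraries. The Cd40 level of neutrophil-like cells overlapped that of NK-like cells, 1.25 CPM (0.151 to 4.52), after control IgG. After anti-CD3L1 it was 35.7 CPM (26.5 to 47.1) against 7.85 CPM (5.88 to 10.3), with intervals apart. Expression of Cd40 by neutrophils was not tested. The Cd86 share of neutrophil-like cells, 3.58% (3.11 to 4.10) and 5.85% (3.98 to 8.24), lay above the NK-like share after anti-CD3L1 and within its interval after control IgG. For Havcr2 the shares of neutrophil-like cells, 1.21% (0.938 to 1.53) and 2.53% (1.36 to 4.29), overlapped those of NK-like cells, which can carry some TIM-3, 0.752% (0.0190 to 4.12) and 2.69% (1.63 to 4.17).

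**Figure D5:**
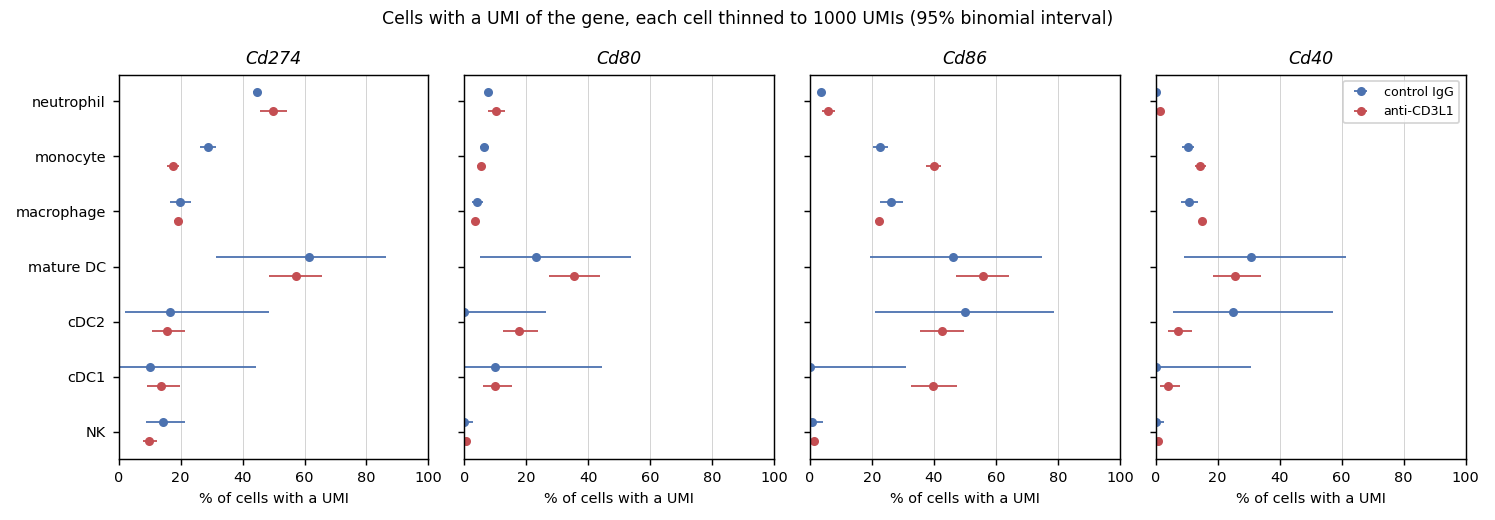
Percent of cells with at least 1 UMI of Cd274, Cd80, Cd86 and Cd40 in 7 classes after thinning to 1000 UMIs, for the control IgG (blue) and anti-CD3L1 (red) libraries, with exact binomial 95% intervals. In monocyte-like cells the Cd86 share is 22.6% and 39.9%, and the shares of Cd80, Cd86 and Cd40 in NK-like cells stay under 2%.

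At 1000 UMIs a cell showed on average 1.27 and 1.52 of the 10 genes. Mature dendritic cell-like cells showed the most, 2.69 and 2.62 on 13 and 136 cells, and 27.2% of the latter had at least 4 of them. The inhibitory ligand Cd274 and the costimulatory ligand Cd86 were seen together in 30.8% and 31.6% of these cells, against 6.603% and 6.51% of monocyte-like, 4.05% and 4.42% of macrophage-like and 1.74% and 2.14% of neutrophil-like cells. Taken singly, Cd274 was seen in 61.5% and 57.4% of mature dendritic cell-like cells and Cd86 in 46.2% and 55.9%. Whether the pair was more frequent than these single shares give was not tested. NK-like cells showed 0.714 and 0.776 genes. Doublets, which would add to such pairs, were scored but not removed here.

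Other genes linked to the 10 were followed in the same way, in 4 lists, where the median log2 ratio of all genes with at least 20 UMIs over both libraries together was 0.60 in neutrophil-like, 0.29 in monocyte-like and 0.017 in macrophage-like cells. Of all these genes, 33.1% were called higher and 3.46% lower in neutrophil-like cells. The shares were 25.1% and 6.0% in monocyte-like and 9.14% and 8.17% in macrophage-like cells. Other inhibitory or SIRP-family receptors of myeloid cells, which carry motifs that recruit phosphatases or pair with activating adaptors, counted 0 higher and 2 lower of 7 measured, median -0.23 in neutrophil-like, 0 higher and 2 lower of 7 measured, median -0.39 in monocyte-like and 1 higher and 4 lower of 7 measured, median -0.88 in macrophage-like cells. Siglece, an inhibitory sialic acid receptor, had 46.6 and 10.9 CPM (log2 ratio -2.09, interval -2.30 to -1.89) within the macrophage-like class and 31.1 and 11.8 CPM (log2 ratio -1.40, interval -1.68 to -1.13) within the monocyte-like class. Sirpb1c had 65.4 and 31.8 CPM (log2 ratio -1.04, interval -1.19 to -0.89) in macrophage-like cells, while Sirpa, of the same family, had 0.095. Reads of the near-identical Sirpb1 genes may be split by the counting, so their single values are uncertain. Lilrb4a, the list's highest, had 469 and 386 CPM (log2 ratio -0.28, interval -0.33 to -0.23) in macrophage-like cells. The RNA of the neutrophil markers is free in the control IgG droplets (71918 and 1691 CPM in empty droplets). These markers summed to 2955 and 237 CPM in macrophage-like cells and 5149 and 855 CPM in monocyte-like cells. Their part in these lower values was not tested.

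Related ligands and costimulatory molecules counted 5 higher and 0 lower of 14 measured, median 0.90 in neutrophil-like, 6 higher and 2 lower of 18 measured, median 0.35 in monocyte-like and 3 higher and 3 lower of 20 measured, median 0.15 in macrophage-like cells. Beside them, 33.1% of all genes were higher and 3.46% lower in neutrophil-like cells. The shares were 25.1% and 6.0% in monocyte-like and 9.14% and 8.17% in macrophage-like cells. Lgals3, which encodes galectin-3, had 1017 and 3068 CPM (log2 ratio 1.59, interval 1.56 to 1.63) in macrophage-like cells and 462 and 983 CPM (log2 ratio 1.09, interval 1.01 to 1.17) in neutrophil-like cells. Fgl2, an immunoregulatory fibrinogen-like protein, had 82.5 and 46.9 CPM (log2 ratio -0.82, interval -0.95 to -0.68) in macrophage-like cells against 45.0 and 211 CPM (log2 ratio 2.23, interval 2.05 to 2.41) in neutrophil-like cells. Cd24a, a ligand of sialic acid receptors, had 88.9 and 43.3 CPM (log2 ratio -1.04, interval -1.19 to -0.89) in monocyte-like cells. The neutrophil markers summed to 5149 and 855 CPM there, and their part in this lower value was not tested. Icam1, the adhesion ligand of LFA-1, had 164 and 155 CPM (log2 ratio -0.085, interval -0.17 to 0.00) in macrophage-like cells. Cluster 2 held 10.6% and 53.7% of macrophage-like cells, and levels of these genes within clusters were not compared.

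Genes for the handling and signalling of the 10 counted 5 higher and 1 lower of 17 measured, median 0.26 in neutrophil-like, 3 higher and 1 lower of 18 measured, median 0.24 in monocyte-like and 2 higher and 2 lower of 18 measured, median -0.15 in macrophage-like cells. Irf1, a transcription factor downstream of interferon that is known to drive Cd274, was higher in all 3 classes, with 232 and 349 CPM (log2 ratio 0.59, interval 0.45 to 0.72) in neutrophil-like, 115 and 275 CPM (log2 ratio 1.26, interval 1.18 to 1.35) in monocyte-like and 100.2 and 182 CPM (log2 ratio 0.86, interval 0.75 to 0.97) in macrophage-like cells. Its ratio in neutrophil-like cells is close to the class median. Jak2 had 309 and 166 CPM (log2 ratio -0.90, interval -0.97 to -0.82) in monocyte-like cells, and Birc3, a target and regulator of NF-kappaB signalling, 184 and 107 CPM (log2 ratio -0.78, interval -0.86 to -0.69) in macrophage-like cells. Nfkb1 had 768 and 694 CPM (log2 ratio -0.15, interval -0.19 to -0.11) in macrophage-like cells. Receptors and binding partners of the 10 counted 2 higher and 0 lower of 6 measured, median 0.28, 3 higher and 1 lower of 7 measured, median 0.16 and 2 higher and 0 lower of 7 measured, median 0.11 in the same classes. For the handling genes and these partners the shares of all genes called are again 33.1% higher and 3.46% lower in neutrophil-like cells. They are 25.1% and 6.0% in monocyte-like and 9.14% and 8.17% in macrophage-like cells. Pdcd1, Cd28 and Ctla4, receptors of lymphocytes, stayed under 10 CPM in all 3 classes, and Thbs1, a ligand of CD47, had 486 and 188 CPM (log2 ratio -1.37, interval -1.44 to -1.30) in monocyte-like cells. Thbs1 was among the leading genes of cluster 3, which held 83.2% and 21.9% of those cells. Its levels within clusters were not compared.

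Finally, the genes most like each of the 10 were taken from 9517 genes by Pearson r of log2(CPM + 1) over the 20 points given by 10 classes in 2 libraries, which share libraries and depth and are not independent. Cd86 and Cd40 were each among the 3 genes closest to the other (r = 0.92), and Tbc1d9 was among the 3 closest to Cd80 (0.88), Cd86 (0.91) and Cd40 (0.92). Cd274 was closest to Gm26535 (r = 0.89), Fam32a (0.88) and Tmbim4 (0.87), and Pdcd1lg2 to Krtcap3 (r = 0.81), Nabp1 (0.78) and Gm15614 (0.78). For Vsir they were Slc43a2 (r = 0.88), Rab20 (0.87) and Tlr2 (0.87), for Lgals9 Morrbid (r = 0.93), Mrps28 (0.92) and Pstpip1 (0.92) and for Havcr2 Ifi211 (r = 0.92), Acaa1a (0.91) and Ifi205 (0.91). The closest to Sirpa were Zeb2os (r = 0.96), 4933433G15Rik (0.94) and Gm21188 (0.94), and those closest to Cd47 were Lrrk1 (r = 0.82), Pkp3 (0.82) and Hat1 (0.80). The third for Cd80 was Il1r2 (0.85), after Cd86 (0.85), and the third for Cd86 was H2-DMb2 (0.87) and for Cd40 Plekho1 (0.92).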

How the data were processed

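Single cells were sequenced on the 10x Genomics platform, 1 library per group. The files the authors deposited hold raw UMI counts of every barcode, before any cell call, and the submitters' processing notes name Cell Ranger 7.1.0, Seurat 5.1.0 and GRCm39. They also deposited a table of their own macrophage comparison (fold changes, p-values and shares of cells), which was not used. Everything below was computed from the UMI counts. No replicate exists, so no p-value was computed.

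The 10 genes, the related lists and the comparisons were chosen with earlier results of these data known. Marker lists were fixed, but the rule that scores them was set after seeing the data: a cell took a class where its score, the mean over markers of log-normalized UMIs per 10000 scaled to the 95th percentile, was at least 0.2, led the next class by 0.05 and rested on 3 detected markers. Of the 19826 cells, 9.4% had scores within 0.02 of these limits. Clusters came from 2000 variable genes, none of them among the 10, with 30 principal components, 15 neighbours and a Leiden resolution of 0.8, without integration of the libraries. A cluster whose 10 leading genes held more markers of another class stayed unnamed and its cells of the commonest class stayed ungated. Scrublet called 0 and 108 doublets at its automatic threshold, so the 586 and 1016 cells with the highest scores were left out only as an alternative.

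UMIs were summed per class and library. Intervals are exact Poisson for CPM and exact binomial for shares and ratios, and differences of shares combine the exact bounds. Genes with at least 20 UMIs over both libraries were measured, and for the medians of the lists a count of 0 was set to 3 counts. The ratio and the thinning were tested on simulated data. Named from the related lists are genes among the 8 with the highest CPM in the class discussed. The genes most like each of the 10 come from those that reach 20 CPM in 1 class and library and 100 UMIs in all. Alternatives changed the UMI and mitochondrial limits, the doublets, the source of the classes, the scaling, the weighting of cells, free RNA and the depth of thinning. Promoters came from RefSeq. Scanpy 1.11.5, SciPy 1.17.1, NumPy 2.4.6, pandas 2.3.3 and Matplotlib 3.10.9 ran under Python 3.11.15.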

Additional observations from a re-analysis of the deposited data

Results flagged for a closer look

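The change of some genes between the libraries had opposite signs in different classes, each with a counting interval on its own side of 0. The difference between the classes was not tested, since each group is 1 library.

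Cd274 had a log2 ratio between the libraries (anti-CD3L1 against control IgG) of 0.22 in neutrophil-like cells and 0.21 in macrophage-like cells, but of -0.60 in monocyte-like cells. In neutrophil-like cells it was -0.29 relative to the median gene, which is also the sign in monocyte-like cells. Havcr2 had 1.42 in neutrophil-like cells, on 51 UMIs after anti-CD3L1, against -0.94 in monocyte-like and -0.42 in macrophage-like cells. As given above, its difference was small within monocyte-like clusters 3 and 8 and in macrophage-like cluster 6, while cluster 12 was lower. Cd86 had 0.81 in neutrophil-like cells and 1.07 in monocyte-like cells, against -0.33 in macrophage-like cells. Mature dendritic cell-like cells had -0.68 and type 1 conventional dendritic cell-like cells 0.71, on 13 and 10 cells after control IgG. The macrophage-like Cd86 ratio was smaller in size in cluster 6 alone but larger with classes taken from the clusters. Beside these signs, the clusters that make up the classes differed between the libraries, and cluster 3 held 83.2% of monocyte-like cells after control IgG and 21.9% after anti-CD3L1.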

How the results depend on the processing

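Of 60 recomputed counts of genes higher or lower, 48 stayed within 1.5 times and 12 did not. Relative to the median gene, 1 gene was higher and 4 lower over all cells (2 and 1 before), 2 higher and 1 lower in neutrophil-like cells (7 and 0) and 1 higher in monocyte-like cells (2). Without neutrophil-like cells, chosen after seeing the data, 1 gene was higher over all cells. With classes from clusters 4 genes were higher and 1 lower in monocyte-like cells and 1 lower in macrophage-like cells. With cluster 1, also chosen afterwards, 4 were higher and 1 lower in monocyte-like cells, and Cd274 there had -0.22. In cluster 6 alone 0 macrophage-like genes were higher. Apart from the scaling, whose shares are given above, these counts have no share of all genes called beside them. They therefore describe the 10 genes only. In the last 3 of these settings the monocyte- and macrophage-like counts differed with the clusters that entered the class. The class with the highest level after anti-CD3L1 was the same for all 10 genes under the alternatives, except that scaling moved Cd47 to mature dendritic cell-like cells, the limit of 1000 UMIs moved Sirpa and the mean over cells moved Vsir from neutrophil-like to monocyte-like cells.

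Of 300 recomputed log2 ratios 69 moved outside the counting interval of the main value and 11 changed sign, as did 28 and 8 of 60 recomputed differences in shares. The scaling gave -0.42 for Pdcd1lg2, -0.50 for Havcr2, -0.20 for Sirpa, -0.61 for Cd47 and -0.40 for Lgals9 over all cells, and -0.29 for Cd274 and -0.016 for Cd80 in neutrophil-like cells. Without neutrophil-like cells Havcr2 had -0.65, Cd47 -0.23 and Cd80 0.031. With each cell weighted equally Pdcd1lg2 had -0.065 over all cells. Without thinning, 8 differences in shares changed sign, to -9.48, -1.28, -8.13, -1.57 and -1.02 percentage points for Cd274, Pdcd1lg2, Vsir, Sirpa and Cd86 in neutrophil-like cells, -6.04 and -1.24 for Vsir and Sirpa in monocyte-like cells and -1.27 for Lgals9 in macrophage-like cells, where the control IgG cells were deeper. Subtraction of free RNA was not run over all cells, since some cells express every marker list, and classes from clusters were not used for the order of levels, since the dendritic subsets share 1 unnamed cluster. No paired analysis was possible because each group is 1 library.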
